A study of Mus musculus with 8 samples.

Results

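The DEAD and DEAH box RNA helicases examined here are the genes whose symbols begin with Ddx or Dhx and a digit, with 2 such symbols left out by the selection rule. The rule reads the symbol and no measured value. It found 48 genes, 33 Ddx and 15 Dhx, among the 12413 genes named in either of the m6A peak lists. They held 183 of the 29586 control peaks and 137 of the 23368 PTC peaks. GENCODE mouse release M21 has 51 protein-coding genes that match the rule, and the germline-associated helicase genes Ddx4, Ddx25 and Ddx43 had no peak in either list.

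N6-methyladenosine (m6A) was mapped in cultured mouse primary T cells. Control cells and cells given PTC, an agent that the labels do not define further, were both taken at 24 h, and each condition was represented by 2 immunoprecipitated and 2 input samples. The labels give no strain, age, sex or genotype, and do not say whether the 2 samples of a group came from different animals or cultures. The authors deposited 1 peak list per condition, so a difference between the lists has no replicate check and no test between conditions was possible.

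RNA helicases of these families use ATP to unwind short RNA duplexes or to strip proteins from RNA. They share a helicase core of conserved motifs, and the families are named for the amino acids of motif II, Asp-Glu-Ala-Asp or Asp-Glu-Ala-His in the one-letter code. Members drive spliceosome remodelling, ribosome assembly, mRNA export, translation and decay, and the reader YTHDC2 of m6A is itself a DEAH-like helicase. Adenosine methylation of mRNA occurs mainly in sequences such as GGACT, and is known to be enriched in long internal exons and around stop codons.

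Nearly all helicase transcripts carried peaks in both conditions. Of the 48 genes 46 were in both lists, 2 were in the control list only and 0 were in the PTC list only. Among all listed genes 12.5% were in the control list only and 8.24% in the PTC list only, against 4.17% and 0.0% of the helicases. The helicases are all protein-coding, and among protein-coding listed genes the shares were 9.36% and 6.43%. The control-only genes were Ddx1, which acts with the tRNA ligase complex, and Ddx60, an interferon-induced antiviral helicase. Ddx1 held 1 coding peak of 151 exonic nt (chr12:13220769-13223835, minus strand) with a −log10 false discovery rate (FDR) of 3.84 and a fold enrichment of 2.16. Ddx60 held 1 peak of 121 nt in its 3′ UTR (chr8:62037645-62037765, plus strand) with a −log10 FDR of 2.31 and a fold enrichment of 12. Both values are the authors', the FDR as its negative logarithm and the fold taken as immunoprecipitate over input. They are used here to rank or describe peaks within a list, and to select peaks in the stricter settings. Helicases also had more control peaks per gene, a mean of 3.81 against 2.60 over all genes. Their control peaks had a median −log10 FDR of 8.36, against 5.53 in other coding genes. The part of both in the shares of genes in 1 list only was not tested.

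Of the 46 genes in both lists 45 had at least 1 control peak that shared a base with a PTC peak. The exception was Dhx35, a spliceosome-associated helicase, which is 1 of 46 against 5.3% of all genes in both lists. Its control peak (chr2:158857616-158857855, −log10 FDR 6.98) and its PTC peak (chr2:158857318-158857437, 2.4) lay apart in the 3′ UTR.

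Under stricter settings most listed helicases were again in both lists, but the genes in 1 list only differed. A gene in 1 list only under a minimum can still have a peak below that minimum in the other list. At a fold enrichment of 4 or more, 38 helicases were listed and 27 were in both lists. Control only were 7 (Ddx10, Ddx19a, Ddx24, Ddx49, Ddx56, Ddx60 and Dhx15), or 18.4% against 24.6% of all genes so listed, and PTC only were 4 (Ddx3y, Ddx21, Ddx47 and Dhx37), or 10.5% against 16.0%. Of protein-coding genes so listed 21.6% were control only and 14.3% PTC only. At a −log10 FDR of 5 or more, 46 were listed and 41 were in both lists. Control only were 5 (Ddx19a, Ddx39b, Dhx16, Dhx29 and Dhx35), or 10.9% against 10.6%, a share near that of all genes, and PTC only were 0 against 9.86%. The shares of protein-coding genes were 8.95% control only and 8.88% PTC only. With the control list shortened to the length of the PTC list by its FDR, Ddx1 alone was in control only, 2.13% against 7.54%, and 0 were PTC only against 13.6%. For protein-coding genes these shares were 5.73% and 11.3%.

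The helicases had more peaks per gene than the average listed gene, and fewer of them in the PTC list. The mean was 3.81 control peaks and 2.98 PTC peaks per listed helicase, against 2.60 and 2.15 over all genes. Fewer PTC than control peaks were listed for 30 of 48 helicases, a share of 62.5% against 45.5% of all listed genes. More PTC peaks were listed for 7, a share of 14.6% against 20.9%. Among protein-coding listed genes 47.8% had fewer and 20.7% had more PTC peaks. The number of PTC peaks over control peaks was 0.749 for helicases and 0.790 for the whole lists. In bulk RNA, a change in the cells that make a transcript and a change per cell cannot be told apart, and neither can a change in methylation and one in the depth or abundance behind a call, since no table used here gives reads per gene.

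**Figure D1:**
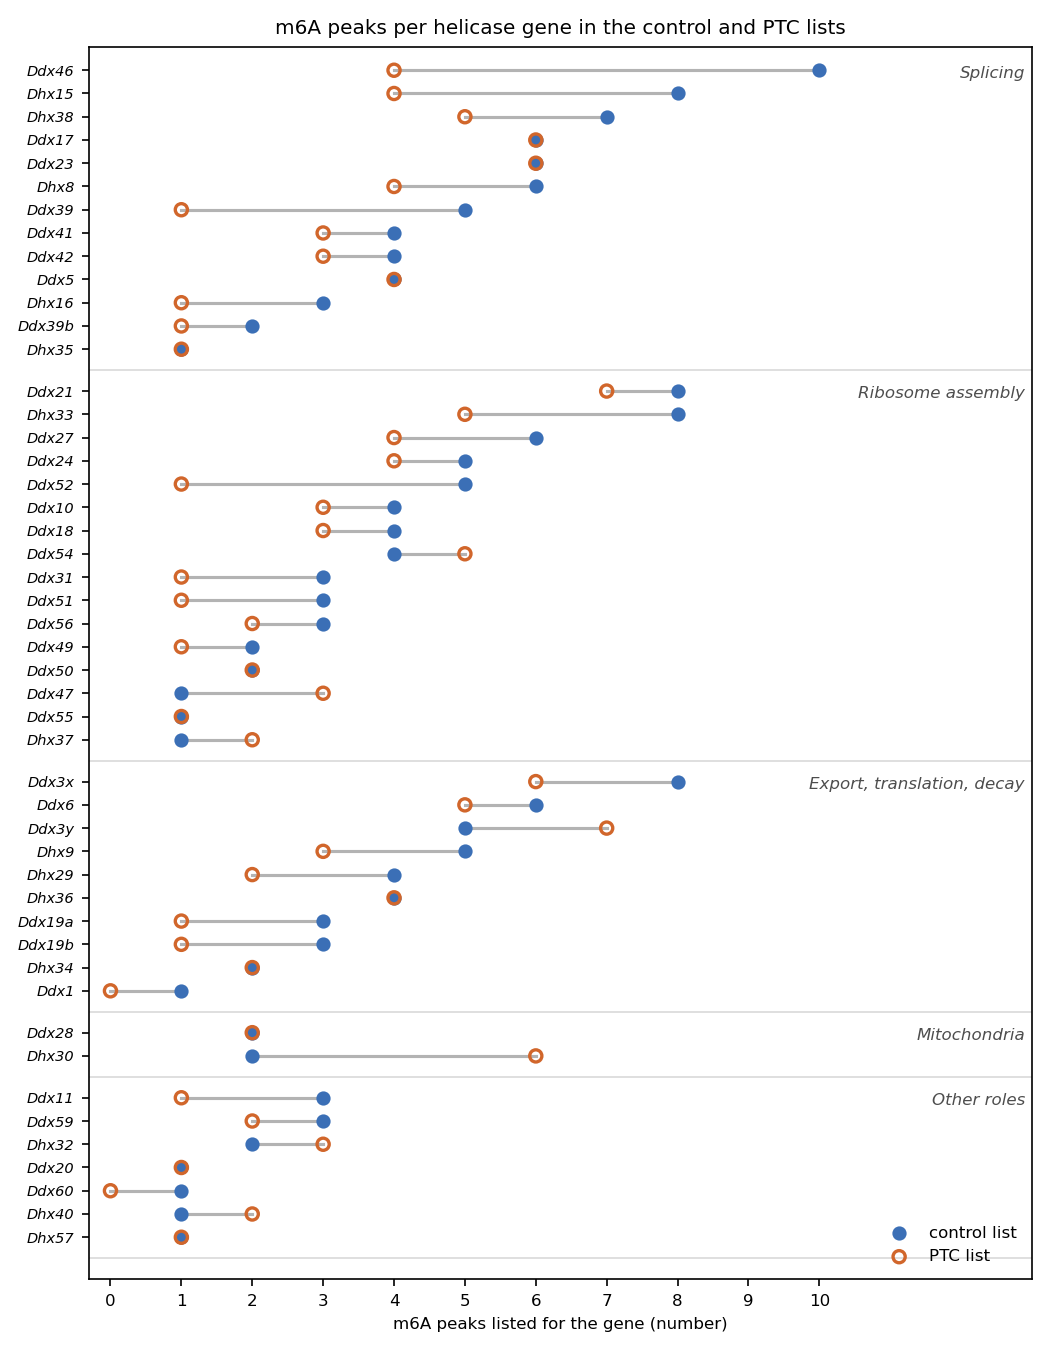
Number of m6A peaks listed for each of the 48 helicase genes in the control list (filled blue) and the PTC list (open orange), grouped by role. The widest gap is that of Ddx46, with 10 control and 4 PTC peaks, while Dhx30 had 2 and 6.

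The 13 helicases of the spliceosome and splicing regulation held 66 control and 43 PTC peaks. None had more PTC peaks, 9 had fewer and 4 had equal numbers. For this and the following role groups, the shares to compare are those of protein-coding listed genes. Of these 47.8% had fewer, 20.7% more and 31.4% equal numbers, and of all 48 helicases 62.5% had fewer. Ddx46, which acts with the U2 particle at the branch site, had 10 control peaks over 2579 nt of its main transcript and 4 PTC peaks over 1257 nt. Its 4 PTC peaks each overlapped a control peak, and 6 control peaks from the coding sequence to the 3′ UTR had no partner, with −log10 FDR between 2.3 and 6.06. Dhx15, which takes spliceosomes apart after splicing, had 8 control and 4 PTC peaks. Yet 1259 nt of its main transcript were inside control peaks and 1319 nt inside PTC peaks. Its strongest peak, in the 3′ UTR, was present in both lists with −log10 FDR of 65.3 and 57.5. The 4 control peaks without a partner were at or below 3.97, and some of them had their midpoint in noncoding exons. Ddx39, an mRNA export and splicing factor, had 5 control peaks and 1 PTC peak. Dhx16, an activator of the spliceosome, had 3 control peaks over 1091 nt and 1 PTC peak over 150 nt, the latter with a −log10 FDR of 2.47. Dhx38 and Dhx8, which act at the second step and at release of the mRNA, had 7 and 6 control peaks and 5 and 4 PTC peaks. Ddx17 and Ddx23 had 6 peaks in each list, and Ddx5 had 4.

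The 16 helicases of ribosome biogenesis held 60 control and 45 PTC peaks, with 11 genes having fewer, 3 more and 2 equal numbers in the PTC list. Ddx52, a factor of small subunit assembly, had 5 control peaks and 1 PTC peak, yet its covered transcript length was 1672 and 1310 nt. A single PTC peak of 1310 nt over the 3′ UTR spanned both of its control peaks there, and the 3 control peaks in the rest of the transcript, with −log10 FDR between 2.91 and 3.47, had no partner. Dhx33, a nucleolar helicase, had 8 and 5 peaks. Ddx21, which acts in transcription and processing of ribosomal RNA, had 8 and 7. The 3 genes with more PTC peaks were Ddx47 with 1 and 3, Dhx37 with 1 and 2, and Ddx54 with 4 and 5. The single control peak of Ddx47, at the stop codon, had the same ends in both lists (chr6:135023267-135023566, plus strand), and its 2 further PTC peaks had −log10 FDR of 2.7 and 4.72.

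Of 11 annotated helicases of export, translation and decay 10 were listed, with 41 control and 31 PTC peaks. In the PTC list 7 of them had fewer, 1 had more and 2 had equal numbers. Ddx6, a repressor of translation and activator of decapping, had 6 and 5 peaks. Dhx29, which helps ribosomes scan structured leaders, had 4 and 2, and only 61 nt of its transcript were covered in both lists. The export helicases Ddx19a and Ddx19b each had 3 control peaks and 1 PTC peak. Dhx36, which unwinds G-quadruplexes, had 4 in each list and 1 overlapping pair.

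Of the mitochondrial helicases 1 had equal numbers and 1 had more PTC peaks. Ddx28, a single-exon gene, had 2 peaks in each list over 1520 and 1490 nt, and Dhx30, which acts in mitochondrial ribosome assembly, had 2 and 6. The number for Dhx30 is not an extent: its main control peak ran over 2790 exonic nt in 9 exon blocks, and 4 of the PTC peaks overlapped that 1 peak. The transcript length inside peaks was 2629 nt for control and 2124 nt for PTC. Of the 9 annotated helicases with other roles 7 were listed, with 12 control and 10 PTC peaks. Dhx32 had 2 and 3 peaks, Dhx40 1 and 2, and Ddx11, a DNA helicase of chromatid cohesion, 3 and 1. The main transcript of Ddx11 nevertheless had 572 nt inside control and 660 nt inside PTC peaks. Ddx20, a subunit of the SMN complex, and Dhx57 had 1 long peak in each list.

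Since peaks can be split or merged, the bases of the main transcript of each gene inside peaks were also counted. Fewer bases were covered in the PTC list for 40 of 48 helicases, or 83.3%, against 65.4% of coding genes. More were covered for 8, or 16.7% against 30.3% of other coding genes. The 8 were Ddx3y, Ddx11, Ddx47, Ddx50, Dhx15, Dhx32, Dhx37 and Dhx57. The median was 1141 control and 911.5 PTC nt per helicase, against 747 and 601 nt for other coding genes. Only 4 helicase control peaks (Ddx5, Ddx17, Ddx54 and Dhx30) overlapped more than 1 PTC peak, and 3 PTC peaks (Ddx11, Ddx27 and Ddx52) more than 1 control peak, which is 2.19% of the peaks in each list against 8.07% and 8.33% of all peaks.

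**Figure D2:**
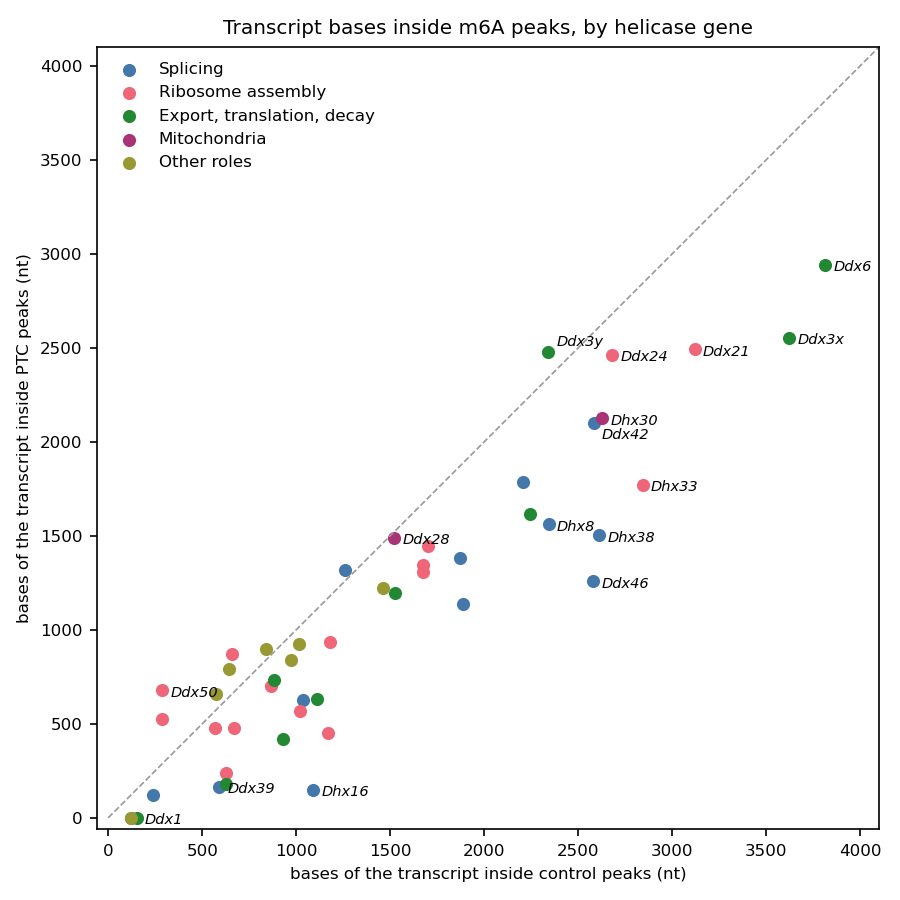
Bases of the main transcript inside control peaks (horizontal, nt) and PTC peaks (vertical, nt) for each of the 48 helicase genes, coloured by role, with the line of equal values dashed. Ddx6 and Ddx3x lie farthest out at 3813 and 3623 control nt, and 40 of 48 genes lie below the line.

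Of the 6 helicases with the strongest peaks in each list 5 were shared: Ddx5, Ddx6, Ddx24, Ddx54 and Dhx8. Ranked by the highest −log10 FDR, the control list was led by Ddx6 (308), Ddx5 (210), Ddx24 (128), Ddx54 (126), Ddx21 (100) and Dhx8 (68.7). The PTC list was led by Ddx6, whose FDR was too small for the list to hold, then Ddx5 (196), Ddx54 (161), Ddx24 (116), Ddx20 (84.9) and Dhx8 (82.3). The strongest Ddx6 peak covered the 5′ UTR and its long second exon and had the same start in both lists (chr9:44604892-44612865 and chr9:44604892-44612835, plus strand). Its fold was 8.3 among control peaks and 28.6 among PTC peaks, in each case a value of that list alone, and the latter was the highest of any helicase PTC peak. The median −log10 FDR of helicase peaks was 8.36 (control) and 9.39 (PTC), above the 5.53 and 6.77 of other coding genes. Their median fold was lower, at 2.93 and 2.68 against 3.61 and 3.66.

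GGACT, a form of the m6A consensus, was searched on the transcript strand, and 1 site of each of these 7 genes is shown because these transcripts carried the strongest peaks. Capitals mark GGACT, the A in it being the base that can be methylated, with 10 bases on either side, 5′ to 3′, from GENCODE M21 on GRCm38.
Ddx6: ttattgagcaGGACTtatttatctc
Ddx5: accagttttaGGACTggtaatccaa
Ddx24: ccctctgcttGGACTggtgctgact
Ddx54: tggacgtcagGGACTatgtccatgt
Ddx21: aggccagaagGGACTgttcccactg
Dhx8: acccgggagaGGACTaaggggaaat
Ddx20: tgcagctcaaGGACTtcttcccaga
The Ddx6 site lies in the 5′ UTR (chr9:44607272-44607296, plus strand) and is 1 of 3 in the strongest peak. The Ddx5 site (chr11:106782008-106782032, minus) lies in the coding sequence 168 nt before the stop codon. The Ddx24 site (chr12:103419023-103419047, minus) lies in coding sequence within its long exon 3. Those of Ddx54 (chr5:120627335-120627359, plus) and Ddx21 (chr10:62582321-62582345, minus) lie in the 3′ UTR, 57 and 19 nt after the stop codon. The Ddx20 site (chr3:105679026-105679050, minus) lies in coding sequence 486 nt before the stop codon. The Dhx8 site (chr11:101738332-101738356, plus) lies in coding sequence far upstream, in its long exon 6, and the strongest Dhx8 peak, in the 3′ UTR, held no GGACT.

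**Figure D3:**
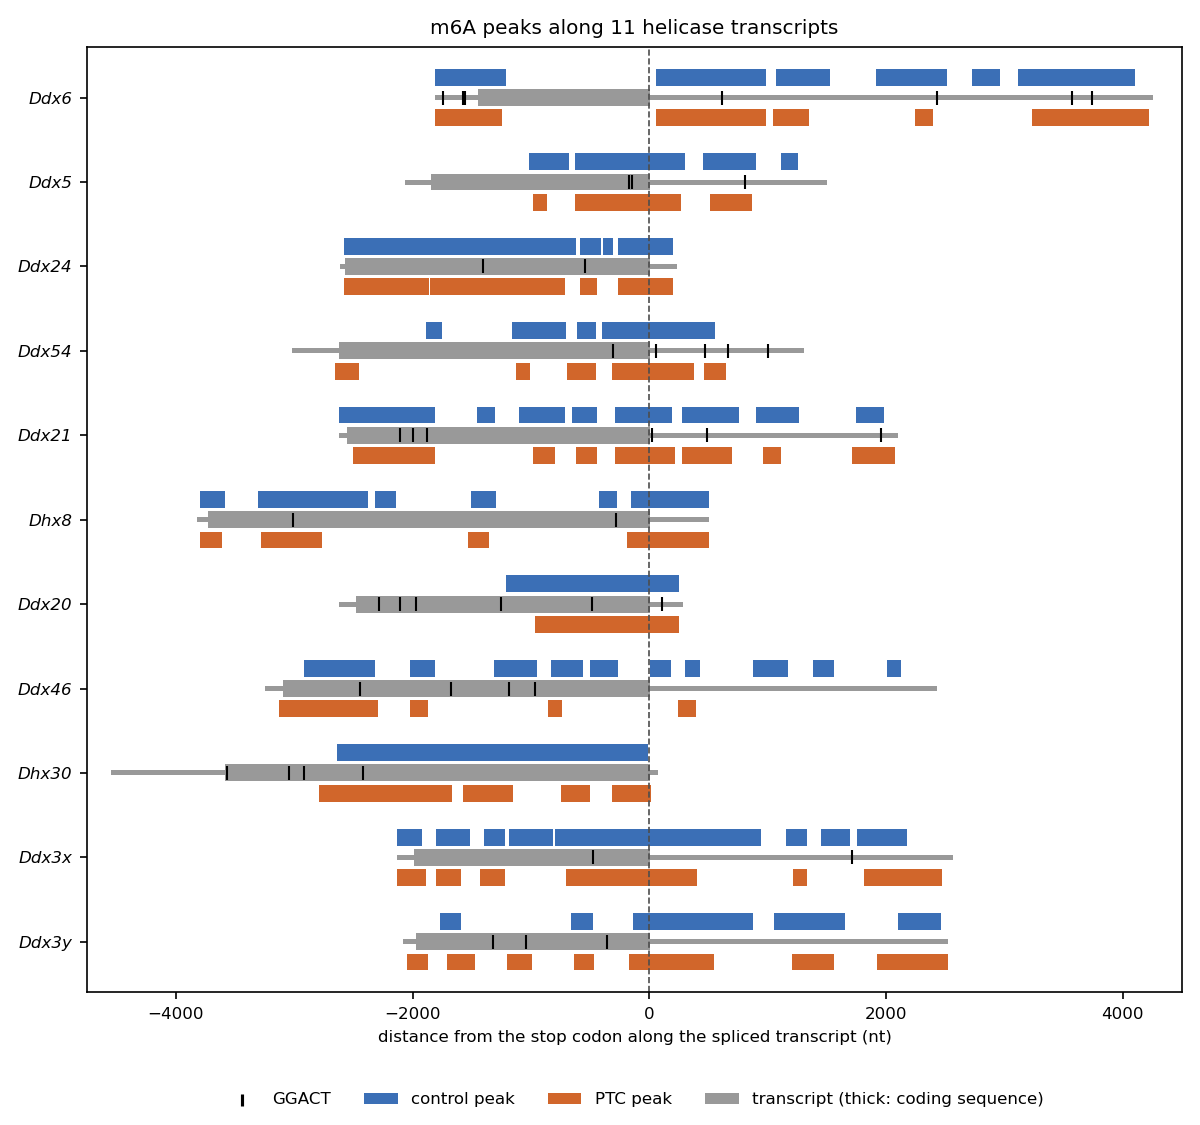
Control peaks (blue, above) and PTC peaks (orange, below) along 11 spliced helicase transcripts (grey, thick where coding), with GGACT sites as black ticks. The horizontal axis is the distance from the stop codon in nt, and peaks or parts of peaks outside the transcript shown are not drawn. The Ddx6 peak at the 5′ end and the peaks over the stop codons of Ddx5, Ddx24, Ddx54, Ddx21, Dhx8 and Ddx20 appear in both lists.

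The helicases are long coding transcripts of many short exons, and many of their peaks lay in such exons. Short internal exons, of at most 400 nt, made up 52.0% of the bases of helicase transcripts against 32.2% in other coding genes of the lists. In the control list 56.8% of helicase peaks had their midpoint in coding sequence, with a 95% Clopper-Pearson interval of 49.3 to 64.1%, and 62.0% (53.4 to 70.2%) in the PTC list. Other coding genes had 42.1% and 40.9%. Midpoints in short internal exons were 43.7% (36.4 to 51.2%) and 40.1% (31.9 to 48.9%) of helicase peaks against 19.3% and 12.5% of other peaks. The intervals here cover counting error only, and peaks of 1 gene are not independent. A peak that crossed an exon junction, with 2 or more exon blocks, was 50.3% of control and 49.6% of PTC helicase peaks, against 29.1% and 24.5%.

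Counted by base, the PTC share was lowest relative to the control share in short internal and first exons. Of helicase bases in short internal exons 24.4% were inside control peaks and 14.4% inside PTC peaks, a PTC over control ratio of 0.590. In last exons it was 51.6% and 42.2%, a ratio of 0.817. In long internal exons it was 90.8% and 87.7%, a ratio of 0.966. Within 200 nt of the stop codon it was 60.0% and 60.7%, a ratio of 1.01. With peaks of a fold of 4 or more alone, the ratios were 0.361 in short internal, 1.05 in last and 0.607 in long internal exons, so the direction turned in last exons and the ratio of long internal exons was lower. The long internal exons of Ddx24 and Ddx10 lay in control peaks just above this minimum, of 4.12, 4.67 and 4.45. The PTC peaks over the same exons, of 3.84, 3.56 and 3.16, fell below it. In Dhx34 a control peak of 4.76 passed and its PTC partner of 2.74 did not. With all peaks the other coding genes had ratios of 0.519 in short internal exons, 0.858 in last exons, 0.953 in long internal exons and 0.982 around stop codons. Their ratios with peaks of a fold of 4 or more were 0.521, 0.889 and 0.968 in short internal, last and long internal exons, so there the order of the last and long internal exons differed between the helicases and the rest. In both lists the helicases had larger shares inside peaks in these 4 parts than other coding genes. First exons did not follow: 19.3% of helicase bases there were inside control and 11.6% inside PTC peaks, a ratio of 0.602, against 19.7% and 14.9%, a ratio of 0.757. Over all exons the helicase share was 37.3% for control and 28.1% for PTC peaks, and that of other coding genes 28.9% and 23.6%. Helicase peaks had the higher median −log10 FDR and the lower median fold, as given above, and the part of either in these shares was not tested.

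**Figure D4:**
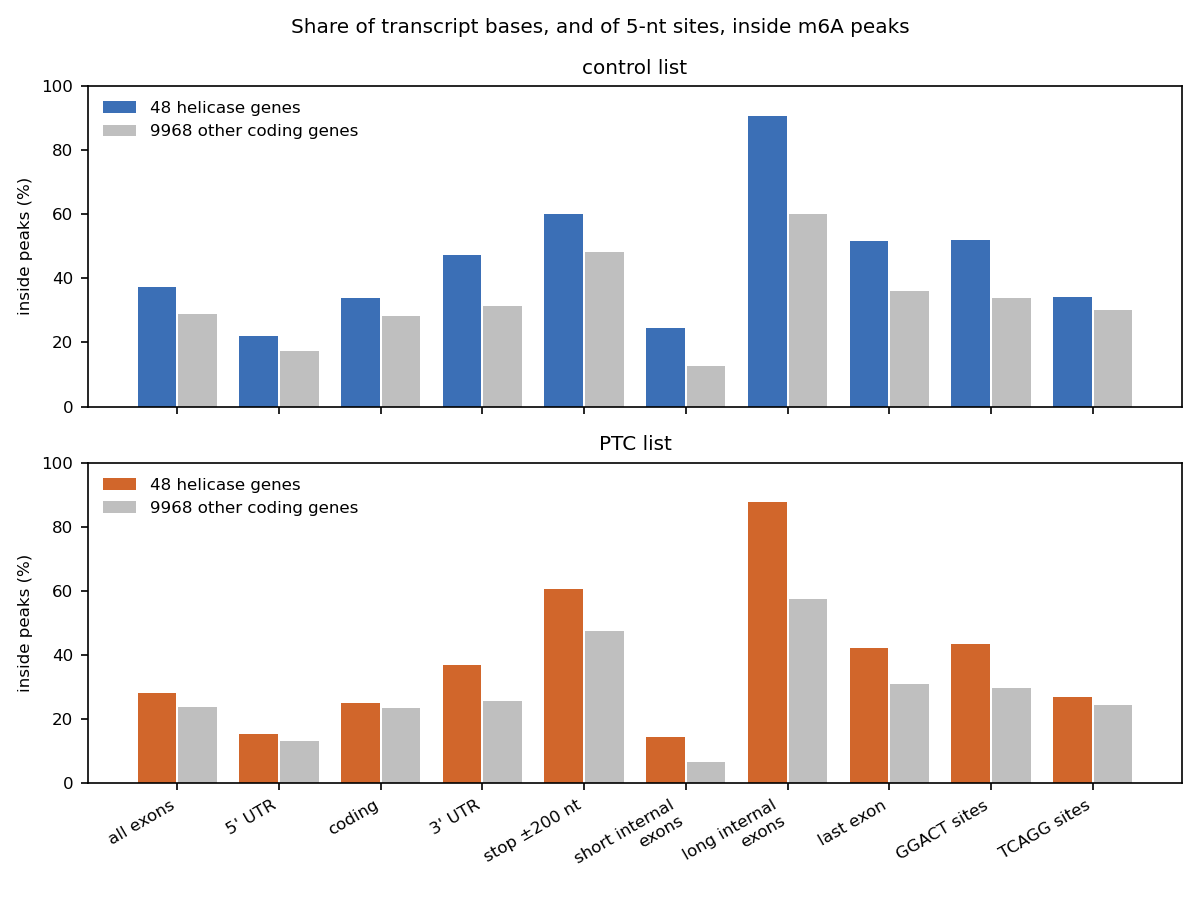
Share (%) of transcript bases, and of 5-nt sites, inside m6A peaks for the 48 helicase genes (coloured bars) and the other coding genes of the lists (grey), in the control list (top) and the PTC list (bottom), by part of the transcript. Long internal exons stand highest for the helicases, at 90.8% and 87.7%, and short internal exons are at 24.4% (control) and 14.4% (PTC).

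All 14 long internal exons of the helicases, in 12 genes, were touched by peaks in both lists. Of 2628 such exons in other coding genes 78.4% were touched by control and 75.9% by PTC peaks. Of the 14, 7 were covered from end to end by control peaks and 4 by PTC peaks. Exons 2, 3 and 5 of Ddx24, of 726, 522 and 516 nt, were wholly inside control peaks, and 98.5%, 100% and 89.5% of their bases were inside PTC peaks. Exon 12 of Dhx30, of 837 nt, was covered to 100% and 98.2%, and exon 2 of Ddx6 and exon 13 of Ddx10 to 100% in both lists. The least covered was exon 11 of Dhx29, of 612 nt, at 53.9% and 39.2%.

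Helicase peaks with their midpoint within 200 nt of a stop codon were 14.8% (10.0 to 20.7%) of control and 20.4% (14.0 to 28.2%) of PTC peaks, against 17% and 22.3% of the peaks of other coding genes. Counted by gene, a measure added after the data were seen, a peak lay over the stop codon in 27 of 48 helicases in the control list and in 32 in the PTC list, or 56.2% and 66.7%, against 52.2% and 51.9% of 9910 other coding genes. All 27 were also covered in the PTC list. The 5 further genes in the PTC list were Ddx41, Ddx50, Ddx51, Dhx30 and Dhx32. In Dhx30, Ddx41 and Ddx51 the nearest control peak ended within 15, 52 and 73 nt of the stop codon. In Ddx50 and Dhx32 it was 1828 and 1449 nt away.

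The 48 transcripts held 187 GGACT sites, at least 1 in each gene. Of these sites 97 (51.9%) were inside control peaks, 81 (43.3%) inside PTC peaks and 75 (40.1%) in both. In other coding genes 33.9% and 29.7% of 39272 GGACT sites were inside peaks, and 25.1% were inside peaks of both lists. The reversed sequence TCAGG, searched for comparison, occurred 246 times in helicase transcripts, with 34.1% and 26.8% inside peaks, against 30.1% and 24.5% in other coding genes. Inside peaks of both lists were 22.4% of TCAGG sites in helicases and 20.4% in other coding genes. In the 3′ UTR 32 of 64 helicase GGACT sites were in peaks of both lists, 9 had a control peak alone and 1 a PTC peak alone. In coding sequence 38 of 115 were in both, 13 had a control peak alone and 5 a PTC peak alone. Dhx38 had the most sites, 12, of which 10 were inside control and 9 inside PTC peaks. All 6 sites of Ddx21 were inside peaks of both lists, and of 7 in Ddx6 all were inside control and 6 inside PTC peaks. From 50 nt before to 50 nt after the peak midpoint, 14.8% (10.0 to 20.7%) of control and 19.0% (12.8 to 26.6%) of PTC helicase peaks held GGACT, against 11.6% and 13.2% of other peaks. A match describes the sequence and is no evidence that the base is methylated.

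The codons of motif II were located in 46 helicases, with no match in Ddx52 and Dhx32. Besides Asp-Glu-Ala-Asp (25 genes) and Asp-Glu-Ala-His (9), the search took the related forms DEVH (5), DEVD (3), DECD (2) and DEIH (2). At least 1 base of the motif was inside a control peak in 11 genes (23.9%) and inside a PTC peak in 8 (17.4%). These codons lay in exons of a median 160.5 nt, and the shares are near the 24.4% and 14.4% of all helicase bases in short internal exons. The 5 genes where peaks of both lists reached motif II are shown, with the 12 bases of the motif in capitals and 6 bases on either side.
Ddx18: gttattGATGAGGCTGACcgtatc
Ddx24: gtcataGATGAAGCTGATcgcatg
Ddx28: gtgctaGATGAAGTAGACacactg
Dhx30: attgtgGATGAGGTCCATgagcgg
Dhx33: attttgGACGAGGCCCATgagcgg
They lie on the minus strand at chr1:121561333-121561356, chr12:103417763-103417786, chr8:106010552-106010575, chr9:110087667-110087690 and chr11:70999802-70999825, in this order. In Ddx24, Ddx28 and Dhx30 the motif is in an exon of more than 400 nt, the only 3 of the 46 where this is so. Ddx28 and Dhx30 have the forms DEVD and DEVH. Motif II was reached by a control peak only in Ddx3x, Ddx17, Ddx21, Ddx49, Ddx54 and Dhx38, and by a PTC peak only in Ddx47, Ddx56 and Dhx36. All 12 bases were inside the peak in each case but Ddx54, whose control peak begins within the motif.

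How often a helicase peak had a partner in the other list followed its strength. Of 183 control peaks 114 shared a base with a PTC peak, or 62.3% (54.8 to 69.3%), and of 137 PTC peaks 117 did so, or 85.4% (78.4 to 90.8%). Other coding genes had 60.2% and 79.5%. Each whole list was divided at its quartiles of −log10 FDR, and from the weakest to the strongest of the 4 bins the share with a partner was 11.5%, 29.7%, 69.5% and 96.7% for helicase control peaks, and 50%, 75%, 97.3% and 100% for helicase PTC peaks. Peaks of other coding genes had 27.0%, 44.4%, 72.0% and 96.6% in the control list, higher in the weaker bins, and 50%, 74.2%, 93.2% and 99.6% among PTC peaks. The weakest control bin held 26 helicase peaks, and its interval of 2.45 to 30.2% includes the share of the other genes. The 69 control peaks without a partner reached a −log10 FDR of 3.73 and a length of 180 nt at the median, and the 114 with one 14.75 and 390.5 nt. The 20 PTC peaks without a partner had medians of 2.945 and 180 nt. Of the 69, 36 (52.2%, 39.8 to 64.4%) had their midpoint in a short internal exon, against 38.6% (29.6 to 48.2%) of those with a partner. Control peaks of other coding genes differed in the same direction, with 29.7% of those without a partner against 12.4% of those with one. By base, 65.3% of control-covered helicase bases were also inside PTC peaks and 86.7% of PTC-covered bases inside control peaks, near the 67.0% and 82.0% of other coding genes.

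**Figure D5:**
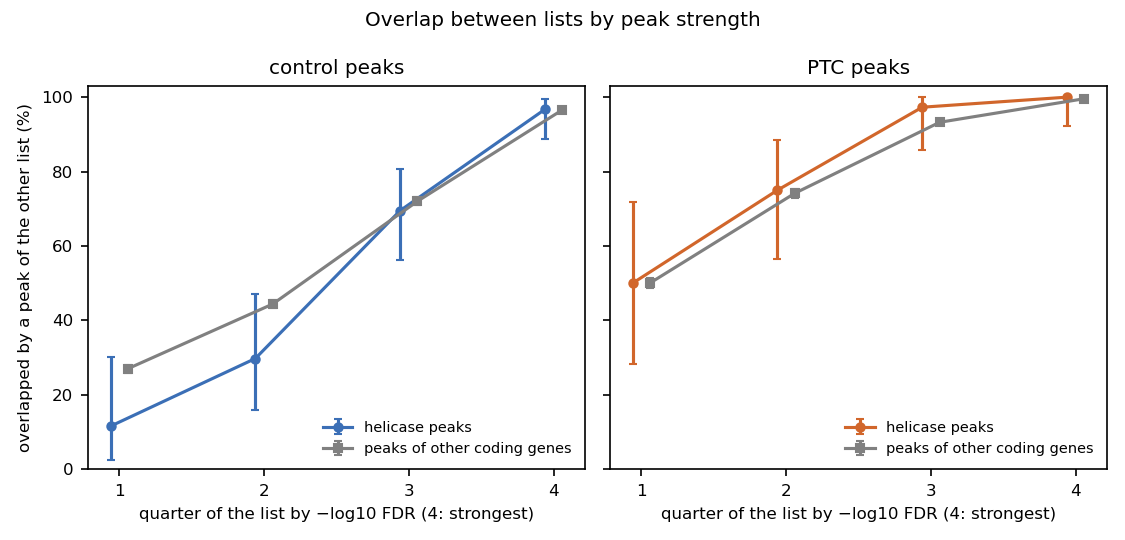
Share (%) of peaks that overlapped a peak of the other list, by quartile bin of −log10 FDR within the list, for helicase peaks and for peaks of other coding genes, with 95% Clopper-Pearson intervals. Helicase control peaks go from 11.5% in the weakest bin to 96.7% in the strongest, and PTC peaks from 50% to 100%.

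Several helicases have a close copy, and reads shared between copies could be counted to either. The X-linked Ddx3x and the Y-linked Ddx3y, which act in translation initiation, are 84.6% identical over their aligned coding bases. Their longest shared run is 35 nt in coding sequence and 51 nt over the whole transcript. Ddx3x had 8 control and 6 PTC peaks over 3623 and 2553 nt of transcript, while Ddx3y had 5 and 7 over 2341 and 2476 nt. The lists thus differed in opposite directions for the copies. Over aligned coding bases, 1679 nt of Ddx3x and 506 nt of Ddx3y were inside control peaks, and all 506 were covered in Ddx3x too. In the PTC list it was 1209 and 892 nt, of which 572 were covered in both. The export helicases Ddx19a and Ddx19b are 93.6% identical, share a run of 275 nt and lie 5387 bases apart on the same strand. Little of their aligned coding sequence was inside peaks, 163 and 29 nt in the control list and 0 and 29 nt in the PTC list. No aligned coding base was covered in both genes in the control list, and none could be in the PTC list. In the 3′ UTR, however, both hold the same 25 nt around a GGACT 145 nt after the stop codon, and that site was inside a control peak in both genes and inside a PTC peak in Ddx19b alone. Coding identity was 81.7% for Ddx39 and Ddx39b, 73.3% for the neighbours Ddx21 and Ddx50, and 72.2% for Ddx5 and Ddx17, with longest shared runs of 26, 23 and 21 nt. How the authors placed reads that fit both copies, and whether the libraries kept strand, is not given in the sources used here, so values of close copies and of genes that overlap an antisense gene are uncertain.

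Other helicase families and G-patch proteins were listed as follows. All 3 eIF4A genes, DEAD box helicases by another name, were in both lists, with 11 control and 7 PTC peaks, and Eif4a2 led with −log10 FDR of 111 and 187. Of 5 Ski2-like helicases 3 were in both, among them Snrnp200 of the spliceosome with 10 and 7 peaks, and Skiv2l2 of the nuclear exosome was in the control list only. Of 8 Upf1-like helicases 7 were in both, with 33 control and 21 PTC peaks in all. Upf1, the helicase of nonsense-mediated decay, had 7 and 2, and Mov10 was in the control list only. Of 20 G-patch proteins, several of which activate DEAH helicases, 17 were in both and Cherp, Gpatch11 and Rbm10 in the control list only. Tfip11, the partner of Dhx15, had 3 peaks in each list. Of 4 other DEAH-like genes Ythdc2 and Supv3l1 were in both lists, and Dqx1 and Tdrd9 in neither. Of the 37 listed genes of all these groups 5 were control only, or 13.5% against 12.5% of all listed genes, and 0 were PTC only, against 8.24%. Among protein-coding listed genes the shares were 9.36% and 6.43%.

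Across the whole series, 36.07% of control reads and 33.03% of PTC reads were in peaks, according to the authors' deposited table. That table counts 19420 control and 15855 PTC peaks, fewer than the lists used here, so its shares may belong to other peak sets. The table and the lists both hold fewer PTC than control peaks. The part of the share of reads in peaks in the smaller PTC counts was not tested. All 12 T cell marker genes examined, Cd3e and Cd4 among them, were in both lists. So were 4 of 5 B cell markers, with 14 control and 8 PTC peaks, and 4 of 5 myeloid markers, with 7 peaks in each list. Cd79a and Itgam had no peak. A peak list holds no expression level, so the amount of RNA from other cells cannot be read from these counts, and their part in the helicase peaks was not tested.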

How the data were processed

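Sample groups were read from the titles and treatment labels: 4 groups of 2 samples, control and PTC, immunoprecipitate and input. The submitters' processing notes name BWA 0.7.12, MACS2 2.1.0 and the build GRCm39. No source used here gives settings, the peak caller threshold or the pooling of samples. The deposited lists give for each peak a p-value, scores that are the log10 of the p-value and of the FDR, a linear ratio named fold enrichment, and exon blocks. The authors' deposited summary table holds a count of peaks (19420 control, 15855 PTC, fewer than the lists hold) and the percent of reads in peaks. Read depth per sample is unknown.

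Coordinates were read as GRCm38, because 99.9% of control and 99.8% of PTC peaks lay in the gene of the same identifier in GENCODE M21, and all helicase peaks did. They are printed from 1, and none was converted. Overlap meant at least 1 shared exonic base on the same strand. Regions were those of peak midpoints. Covered bases and motifs used 1 principal transcript per gene. Computation used Python 3.11.15, pandas 2.3.3 and Biopython 1.88, and the overlap and position functions were tested on simulated data. The strength of a peak was not tested between lists, but the minimums of fold and −log10 FDR set the same cutoff on both. Under such a minimum a gene can fall in 1 list only although overlapping peaks were listed in both.

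The members, gene lists and rules were chosen with earlier results of these data known. Named genes were those in 1 list only or without an overlapping pair, the 6 strongest and the 6 with most peaks per list, those differing by at least 3 peaks, Ddx3x and Ddx3y, and the strongest of each role. Dhx32, Dhx36, Dhx40, Dhx57, Ddx11, Ddx47, Dhx37 and others outside that rule were named to complete a small count after their values were seen. Alternatives were a fold of at least 4, a −log10 FDR of at least 5, equal list length, other overlap rules, stop codon distances and motif windows.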

Additional observations from a re-analysis of the deposited data

How the results depend on the processing

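Of 74 values recomputed under other settings, 47 stayed near the reported value, 26 moved and 1 turned. At a minimum fold of 4, the helicases were 27 in both lists, 7 control only and 4 PTC only, with 57 control and 42 PTC peaks. Under the same minimum the PTC over control ratio of covered bases was 0.361 in short internal exons, 0.607 in long ones and 1.05 in last exons, the last above 1 where the reported value is below it, and 20 stop codons were inside PTC peaks. Covered bases and genes with a peak over the stop codon, with all their settings, were added after seeing the data. At a −log10 FDR of at least 5, 5 genes were control only, 0.820% of control midpoints were in noncoding exons, and 92.5% of PTC peaks had a partner. With the control list reduced to the length of the PTC list, 1 gene was control only. Requiring 50% of each peak left 48.6% of control and 65.0% of PTC peaks with a partner, and midpoints within 100 bp 44.3% and 59.1%. Midpoints near a stop codon were 7.65% and 10.9% within 100 nt and 25.1% and 29.9% within 400 nt. GGACT was in 7.10% and 11.7% of windows reaching 25 nt to either side, 24.6% and 27.0% of those reaching 100 nt, and 36.6% and 42.3% of whole peaks. The overlap, distance and window rules loosen or tighten by construction, and for the other settings the cause was not tested. No paired analysis was possible because the groups share no sample number and the lists hold no value per sample, which is also why leaving out a sample was not run. Read depth is unknown, so what it limits cannot be given. In the weakest bin of −log10 FDR 11.5% of control and 50% of PTC helicase peaks had a partner.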
